A study of Mus musculus with 2 samples.

Results

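The proteasome subunit genes are the 49 rows, of 35976 gene rows in the count tables, whose symbol consists of Psm, a letter from a to g and a number with at most one further letter, a or b. The names alone chose them and no measured value entered the choice. They comprise 8 alpha ring genes (Psma), 7 constitutive beta ring genes (Psmb1 to Psmb7), 3 immunoproteasome genes (Psmb8, Psmb9 and Psmb10), the thymoproteasome gene Psmb11, 6 ATPases (Psmc) and 11 non-ATPase subunits (Psmd) of the regulatory cap, 5 activator genes (Psme), and 8 assembly or inhibitor genes (Psmd5, Psmd9, Psmd10, Psmf1 and Psmg1 to Psmg4). They were measured in single CD4 T cells of mouse spleen that carried OTII, a transgenic T cell receptor for an ovalbumin peptide. The cells had been transferred into hosts and were collected on day 7 after CAS, a step the labels do not explain, and a second priming. The control sample pooled cells from 2 hosts labelled C57BL/6, for which no floxed or Cre allele is named. The deleted sample pooled cells from 3 hosts labelled IL13Ra1f/f, CD11cCre/+, in which Cre under the CD11c promoter removes the receptor gene from dendritic cells and other CD11c-expressing cells of the host, not from the transferred cells. The age and sex of the hosts are not given. The sort gate took viable CD4 cells with V beta 5, and host CD4 cells that use the same V beta chains could pass it.

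The proteasome is the protease that degrades ubiquitin-tagged proteins. Its core particle stacks rings of alpha subunits, which gate the channel, around rings of beta subunits, which hold the cutting sites, and a cap of ATPases and non-ATPase subunits recognises, unfolds and feeds in the substrate. Interferon gamma and lymphoid identity favour the immunoproteasome, in which Psmb8, Psmb9 and Psmb10 take the places of the catalytic subunits Psmb5, Psmb6 and Psmb7 and shift the cutting preference toward peptides that class I MHC molecules present. In T cells the proteasome also takes part in NF-kappa B activation and in the turnover of cell cycle proteins.

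Each of the 8 plates held 92 cell wells, and the 736 cells had 573105030 reads in genes in the control pool and 542650671 in the deleted pool, with 125197307 to 148025125 per plate. The median cell had 1530282 reads, and 2 cells had under 100000. Each group is 1 pool of animals, so no test between groups was possible and no p-value is given. Plates are technical splits of a pool, and plate and pool cannot be told apart. Levels are counts per 1000000 reads in genes (CPM), and ratios are log2 of (CPM + 1) over (CPM + 1). The cells matched their label: Cd4 stood at 915 CPM in the control pool and 783 in the deleted pool, and Cd3e at 221 and 212. The 9 wells that received no cell held 6698 to 12348 reads, in which no proteasome gene had more than 12 reads, against 15.3 reads that correspond to 10 CPM in the median cell. Cells with at least 10 CPM of a gene count as positive for it. The cell with the fewest reads, 9905, was positive for 27 members because 1 read in it exceeds 10 CPM.

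The 3 immunoproteasome subunits replace named constitutive partners, so 3 promoters from the pairs are shown, each with a motif that was found in it. The sequences are from RefSeq for GRCm38.p6, the assembly also called mm10, and run 5′ to 3′ on the strand of the gene from 250 bases before to 50 bases after the start site, with the matched motif in capitals. Psmb9 (chr17:34187281-34187580, minus strand) holds the NF-Y motif CCAAT on its opposite strand, 8 bases before the start site. Psmb5 (chr14:54617946-54618245, minus strand) and Psmb6 (chr11:70525107-70525406, plus strand) hold TGACNNNGC, the motif of NFE2L1 and NFE2L2, the first of which drives proteasome genes, as TGACGTCGC and TGACGGAGC.
Psmb9: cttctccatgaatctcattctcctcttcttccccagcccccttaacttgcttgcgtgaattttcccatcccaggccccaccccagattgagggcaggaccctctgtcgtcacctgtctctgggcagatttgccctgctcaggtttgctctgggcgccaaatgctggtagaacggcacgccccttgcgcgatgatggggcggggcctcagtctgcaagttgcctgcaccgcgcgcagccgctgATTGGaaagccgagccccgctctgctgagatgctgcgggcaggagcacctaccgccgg
Psmb5: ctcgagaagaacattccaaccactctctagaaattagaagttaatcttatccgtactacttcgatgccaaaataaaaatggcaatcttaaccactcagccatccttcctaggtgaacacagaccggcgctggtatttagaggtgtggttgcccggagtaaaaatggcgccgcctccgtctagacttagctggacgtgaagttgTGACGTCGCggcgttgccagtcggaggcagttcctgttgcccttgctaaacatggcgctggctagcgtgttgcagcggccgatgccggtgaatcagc
Psmb6: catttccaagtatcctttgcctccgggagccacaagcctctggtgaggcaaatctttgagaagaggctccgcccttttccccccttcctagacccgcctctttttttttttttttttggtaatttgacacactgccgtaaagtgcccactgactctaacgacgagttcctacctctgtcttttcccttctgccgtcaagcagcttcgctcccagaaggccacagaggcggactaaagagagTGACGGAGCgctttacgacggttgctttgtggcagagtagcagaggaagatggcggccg

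Psmb8 and Psmb9 lie next to the peptide transporter genes in the class II region of the MHC on chromosome 17, and 275 of the 300 bases shown for Psmb9 are also in the promoter of Tap1, which reads the other way. Motifs were searched on both strands. A member counted as holding a motif if any of its promoters did, whereas the share of all promoters counted each promoter. The shares of members and of all promoters are therefore in unlike units. TGACNNNGC was in the promoters of 6 of the 41 members with an entry (14.63%) and in 12.38% of all 32817 promoters, and CCAAT in 14 members (34.15%) against 37.39%. The interferon regulatory factor motif was in 5 members (Psmb3, Psmd4, Psmd9, Psme1 and Psmg4), against 3.431% of all promoters. The promoter in the table for Psmb10 (chromosome 8) held none of these motifs. A match is a run of letters and not a measured site of binding.

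The immunoproteasome gene Psmb8, the chymotrypsin-like subunit LMP7, had the highest level per length of all members. Over the 736 cells it reached 449.2 CPM per kilobase of exon, and its plates ranged from 348.0 to 532.1. Its lowest plate lay above the highest plate of every other member except Psme1, the alpha subunit of the PA28 activator, whose plates ranged from 205.6 to 392.8 around 309.8 CPM per kilobase. Next in order were the alpha ring gene Psma7 at 281.5 CPM per kilobase and Psmd4 at 246.4, the cap subunit that binds ubiquitin chains. Their plates overlapped, from 222.5 to 343.4 for Psma7 and from 210.7 to 285.9 for Psmd4, so the order between these neighbours did not exceed the spread of the plates. The constitutive beta genes Psmb2 (221.1), Psmb6 (220.3) and Psmb3 (204.2) followed within one another's plate ranges. With exon lengths over all basic transcripts, an alternative added after seeing the data, Psmb8 and Psme1 kept the first places, while Psma7 moved from place 3 to place 5 at 218.1 CPM per kilobase and Psmd4 from place 4 to place 8 at 179.8, below Psmb2, Psmb6, Psmb3 and Psme2.

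The median level per length was 159.5 CPM per kilobase over the 3 immunoproteasome genes, 155.2 over the activators and 134.7 over the constitutive beta ring. The activator median is the level of Psme2b itself, a gene whose reads may be shared with its copy Psme2. It was 112.0 over the cap ATPases, 96.77 over the 7 alpha ring genes with a signal, and 73.04 over the cap non-ATPases. Genes of the assembly and inhibitor group, whose products are chaperones or bind the core transiently, were lowest as a group with a median of 34.09 CPM per kilobase, from Psmg3 at 15.31 to Psmg2 at 50.66. The spread within a group was wide. Members of the alpha ring, which stand in the complex in equal numbers, differed 3.99-fold in level with the first lengths between Psma3 (70.64 CPM per kilobase) and Psma7, and the cap ATPases differed 4.03-fold between Psmc6 (39.95) and Psmc4 (161.0). The lowest member with more than 1 CPM was Psme4, the large activator PA200, at 3.359 CPM per kilobase.

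**Figure D1:**
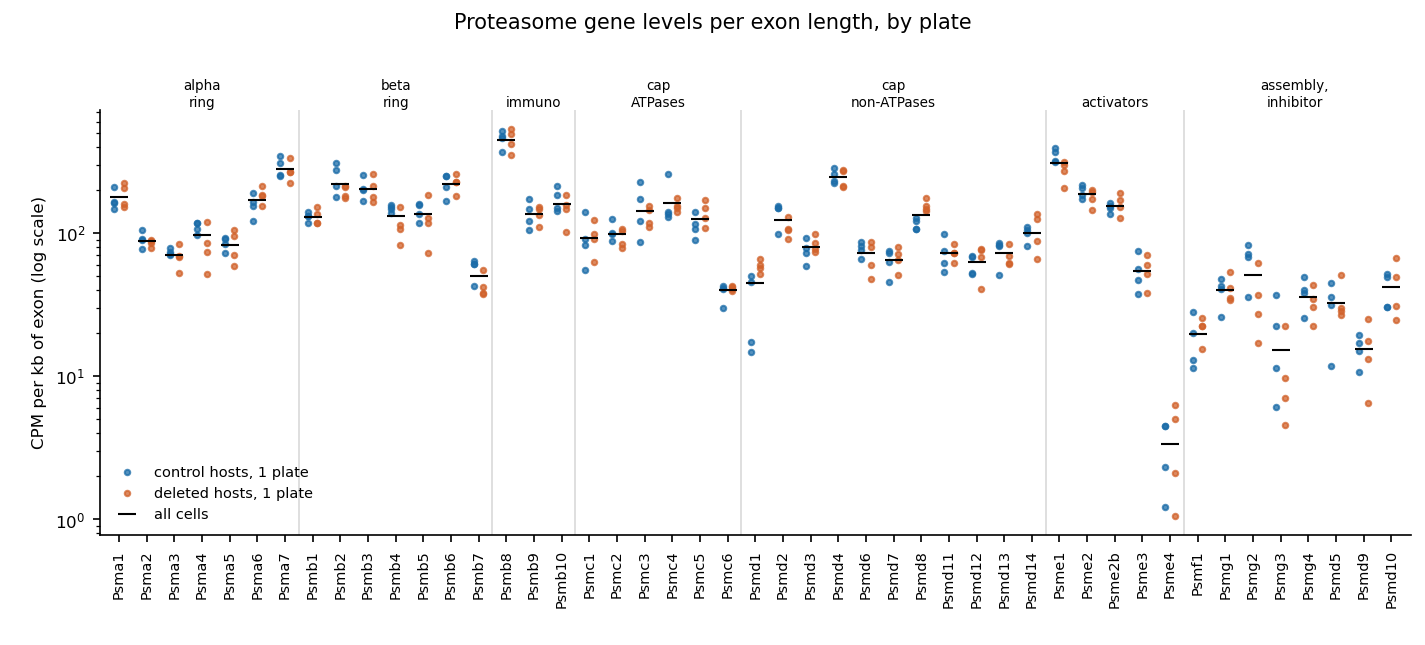
Level of each proteasome gene in CPM per kilobase of exon on a log axis, grouped by part of the complex. Each point is 1 plate of 92 cells (blue, control hosts; orange, deleted hosts) and each bar is the value over all 736 cells. Psmb8 is highest at 449.2 and Psme4 lowest at 3.359, and Psma8 and Psmb11 are not drawn.

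The tissue-restricted members marked the lower end. Psmb11, the beta subunit of thymic epithelium, had 0 reads in all cells, and Psma8, the alpha subunit of the testis, stood at 0.0054 CPM. Neither was positive in any cell, 0 of 736, and by the rule of 3 counts of the total such a zero limits the share to 0.408%. In all, 47 members were above 1 CPM, and 46 reached the 20 CPM in either pool that was required for comparisons between pools, with Psmg3 below it at 17.1 CPM in the control pool and 9.8 in the deleted pool. A cell was positive for a median of 13 of the 49 members, with a range of 2 to 36. Psmb8 was positive in 543 of the 736 cells, Psme2b in 479, Psme2 in 439 and Psme1 in 427, while Psme4 was positive in 37 and Psmg3 in 27.

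In 2 of the 3 catalytic pairs the immunoproteasome gene made up most of the reads per length. Psmb8 accounted for 76.2% of the reads per kilobase of the Psmb8 and Psmb5 pair in the control pool and 77.8% in the deleted pool. By plate the share was 76.7%, 74.1%, 77.8% and 75.8% in the control pool (mean 76.1% ± 1.55, SD over 4 plates) and 81.8%, 85.1%, 79.5% and 65.3% in the deleted pool (mean 77.9% ± 8.72). The ranges overlapped, and deleted plate 4 was the lowest of all. There Psmb8 was at 566.5 CPM and Psmb5 at 165.9, against 566.5 to 866.2 and 65.5 to 165.9 over the 4 deleted plates.

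Psmb10, which replaces the trypsin-like subunit Psmb7, accounted for 75.1% of its pair in the control pool (plates 70.8% to 76.9%) and 77.3% in the deleted pool (72.9% to 79.5%). Psmb9, which replaces the caspase-like subunit Psmb6, was the exception among the 3 pairs. It made up 38.4% of its pair in the control pool, with plates at 40.9%, 41.2%, 29.6% and 42.1%, and 38.0% in the deleted pool, with plates at 37.2%, 37.4%, 39.2% and 38.0%. Every plate of the Psmb9 pair lay below every plate of the other pairs, and no pair had plates that separated the pools.

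**Figure D2:**
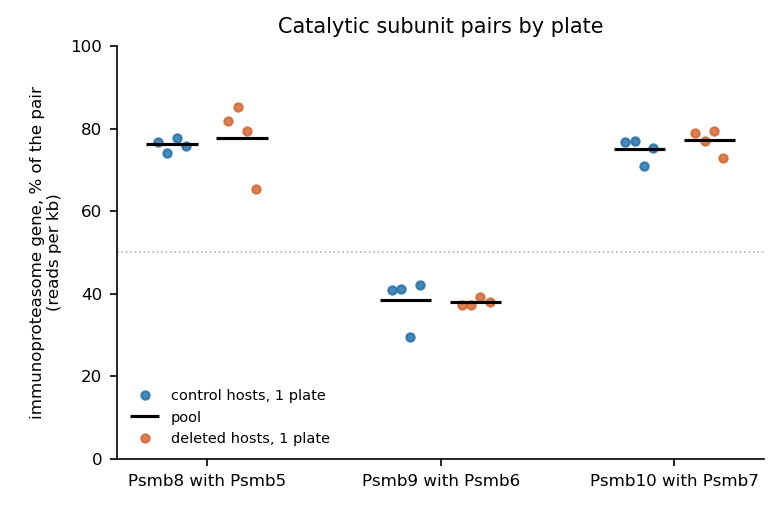
Share of the immunoproteasome gene in the reads per kilobase of each catalytic pair, in percent, by plate (points) and pool (bars). The Psmb8 and Psmb10 shares lie between 65.3% and 85.1%, and the Psmb9 shares between 29.6% and 42.1%.

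Within single cells, one gene of a pair was often found without the other. Psmb8 was positive without Psmb5 in 196 of 368 control cells (53.3%, 95% Clopper-Pearson interval 48.0 to 58.5) and in 202 of 368 deleted cells (54.9%, 49.7 to 60.1). Psmb5 was positive without Psmb8 in 23 control cells (6.25%, 4.003 to 9.231) and 29 deleted cells (7.88%, 5.34 to 11.1). Both were positive in 79 and 66 cells. For the Psmb9 pair, 103 control cells were positive for Psmb9 alone, 76 for Psmb6 alone and 63 for both, and the deleted pool had 88, 62 and 69 such cells. Neither gene of the Psmb10 pair reached 10 CPM in 181 control cells and 211 deleted cells. A cell below 10 CPM may hold the transcript below detection, so these counts do not separate kinds of cells.

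Across cells, the summed CPM of the core rings had a Pearson correlation of 0.13 with that of the cap (Psmc and Psmd) in the control pool. In the deleted pool it was 0.17, each over 368 cells. With the immunoproteasome genes, summed apart, the core sum correlated at 0.11 and 0.12. The core sum and the number of genes with at least 5 reads correlated at 0.33 and 0.34 over the same cells, which share their reads and total.

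The comparison of the pools bears on the question named for the study, how loss of the IL-13 receptor from host dendritic cells affects the transferred T cells. All proteasome genes together stood at 8022 CPM, 0.802% of reads, in the control pool and at 7772 CPM in the deleted pool (log2 ratio -0.05). Plates ranged from 7413 to 8765 CPM in the control pool and from 7383 to 8029 in the deleted pool, so the ranges overlapped. No part of the complex had plates that separated the pools. The largest ratios among the parts were those of the activators, at 865.3 CPM (95% Poisson interval of the pooled reads 862.9 to 867.7) and 777.1 CPM (774.8 to 779.5), and of the constitutive beta ring, at 1140 CPM (1137 to 1143) and 1029 CPM (1026 to 1032), each with a log2 ratio of -0.15. The activator ratio came to -0.08 when deleted plate 4 was left out, and leaving out control plate 1 gave -0.08 for the beta ring. Of the 5 activator genes 3 were higher in the deleted pool, with a median of 0.02, and Psme1 was the lower one with the most reads. These intervals cover counting error of reads only, and PCR copies count as reads.

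The other parts differed less. The alpha ring stood at 1356 and 1324 CPM (log2 ratio -0.03), the immunoproteasome genes at 1148 and 1100 (-0.06), the cap ATPases at 1052 and 1031 (-0.03), the cap non-ATPases at 2007 and 2068 (0.04), and the assembly and inhibitor genes at 454.2 and 443.9 (-0.03). All genes compared had a median log2 ratio of -0.04. Scaled to that median, the ratios of the alpha ring, cap ATPases and assembly group turned to 0.01. Without deleted plate 4 the immunoproteasome ratio was 0.05, without control plate 1 the cap ATPase ratio was 0.11, and without control plate 4 the ratio of the assembly and inhibitor genes was 0.15.

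Of the 46 members compared, 21 were higher and 25 lower in the deleted pool, with a median log2 ratio of -0.01, and scaled to the median of all genes the split was 26 higher and 20 lower. A gene was called separated where the plate ranges of the pools did not overlap. This held for 2 of the 46 members, both higher in the deleted pool, against a background of 4.68% of the 7207 genes compared (1.82% higher and 2.86% lower in the deleted pool). That share is near the background. No member differed 2-fold between pools, against 5.91% of all genes, a share that was not computed for genes at 100 CPM or more.

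The separated members were both non-ATPase subunits of the cap. Psmd1 (RPN2, the large scaffold subunit to which ubiquitin receptors dock, chromosome 1) was at 46.2, 141.2, 156.4 and 53.9 CPM on the control plates and at 187.0, 176.1, 205.8 and 160.6 CPM on the deleted plates. The control plates spread more widely than the pools differed, and the highest control plate was close to the lowest deleted plate. The pooled levels were 98.6 CPM (97.8 to 99.4) and 182.1 CPM (180.9 to 183.2), a log2 ratio of 0.88, which ranged from 0.64 to 1.19 when each plate was left out. Psmd1 was positive in 51 control cells, with 8, 18, 16 and 9 on the plates, and in 64 deleted cells, with 17, 18, 18 and 11, so the plates overlapped in the number of positive cells.

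Psmd8 (RPN12, a lid subunit, chromosome 7) was at 160.4, 191.8, 183.0 and 160.2 CPM on the control plates and at 264.2, 215.9, 220.7 and 233.9 CPM on the deleted plates. Its plates were narrower within each pool than those of Psmd1. The log2 ratio of the pooled levels, 173.6 and 233.1 CPM, was 0.42 and stayed between 0.36 and 0.47 when each plate was left out. The lowest ratio was that of Psmg2, the assembly chaperone PAC2, at 68.5 and 37.9 CPM (-0.84), but its plates overlapped: 38.1 to 87.2 CPM in the control pool and 18.1 to 64.9 in the deleted pool. Psme1 was at 386.2 and 300.3 CPM (-0.36), Psmb7 at 66.26 and 49.98 (-0.40), Psma4 at 127.8 and 96.8 (-0.40), and Psmd2, the other large cap scaffold RPN1, at 409.9 and 319.1 (-0.36). Each of these had overlapping plates.

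**Figure D3:**
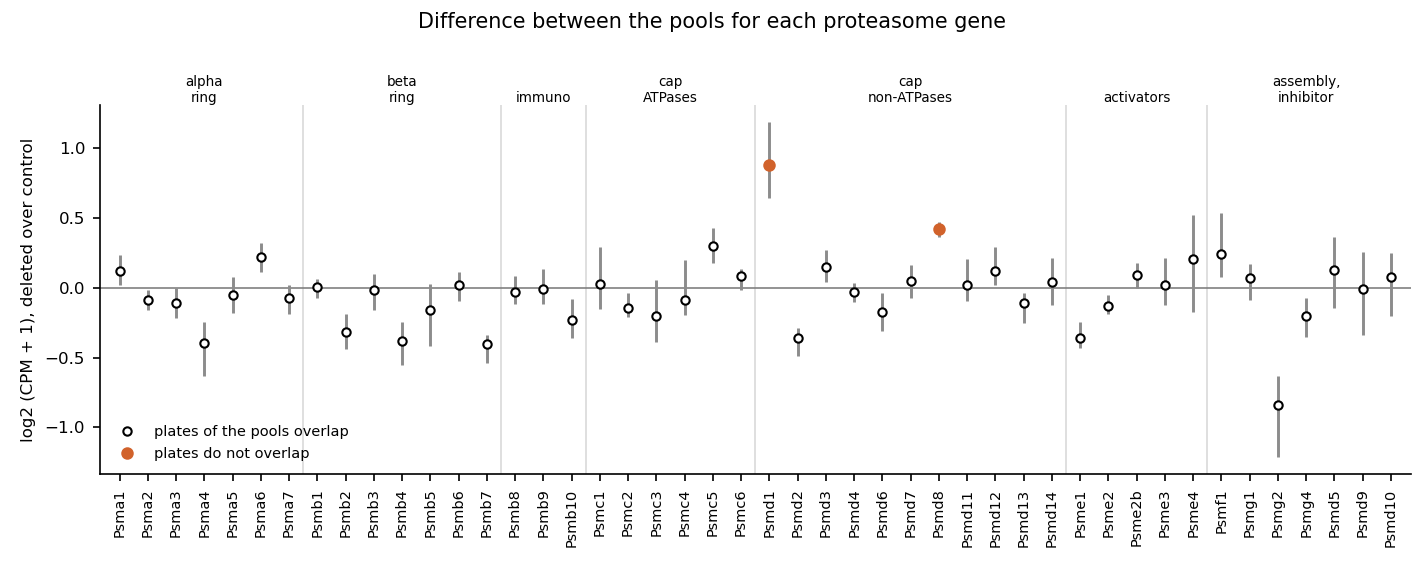
Log2 ratio of (CPM + 1) in the deleted over the control pool for the 46 members compared. Circles are the pooled values, filled where the plates of the pools do not overlap, and grey lines span the values when each plate is left out in turn. The filled circles are Psmd1 at 0.88 and Psmd8 at 0.42.

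Tnfrsf9 encodes 4-1BB, a costimulatory receptor that T cells show after recent antigen receptor stimulation. At 10 CPM or more, 110 of the 736 cells were Tnfrsf9-positive, 46 in the control pool (12.5%) and 64 in the deleted pool (17.4%), with 10 to 17 per plate. Tnfrsf9 averaged 1112 CPM in these cells and 0.803 CPM in the other 626, and wells without a cell held at most 2 reads of it. Proteasome genes were higher in the Tnfrsf9-positive cells, by 1.27-fold in sum. The summed level was 9607 CPM in positive and 7585 CPM in negative cells (log2 ratio 0.34). The positive cells were higher on 8 of 8 plates, with plate ratios between 0.01 and 0.57. Cells are not replicates, and the plates of a pool come from the same animals, so these counts describe the plates and are no test.

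On the control plates the summed level was 10169, 10111, 7438 and 9826 CPM in positive cells and 8512, 7735, 7410 and 7649 CPM in negative cells. On the deleted plates it was 10442, 9535, 10199 and 8600 CPM in positive cells and 7054, 7667, 7404 and 7147 CPM in negative cells. Positive cells of control plate 3 lay within the range of the negative cells, and those of the other 7 plates lay above it. The log2 ratio was 0.27 in the control pool and 0.41 in the deleted pool, and the difference between these was not tested.

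The core rings, the cap and the activators had similar ratios. The alpha ring was at 1700 CPM in positive and 1274 CPM in negative cells (log2 ratio 0.42, higher on 7 of 8 plates) and the constitutive beta ring at 1352 and 1037 (0.38, 6 of 8). The cap ATPases were at 1292 and 995.4 CPM (0.38) and the cap non-ATPases at 2533 and 1945 (0.38), both higher on 8 of 8 plates. The activators were at 1016 and 786.5 CPM (0.37, 7 of 8) and the assembly and inhibitor genes at 519.5 and 436.2 (0.25, 6 of 8). The pools differed in direction for this last part, with 0.63 in the control pool (4 of 4 plates above 0) and -0.09 in the deleted pool (plates -0.74 to 0.39), a difference that was not tested. The immunoproteasome genes had the smallest ratio of the 7 parts, at 1193 and 1112 CPM (0.10, 5 of 8 plates), with plate ratios between -0.15 and 0.39 that overlapped those of the constitutive beta ring, -0.08 to 0.99.

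**Figure D4:**
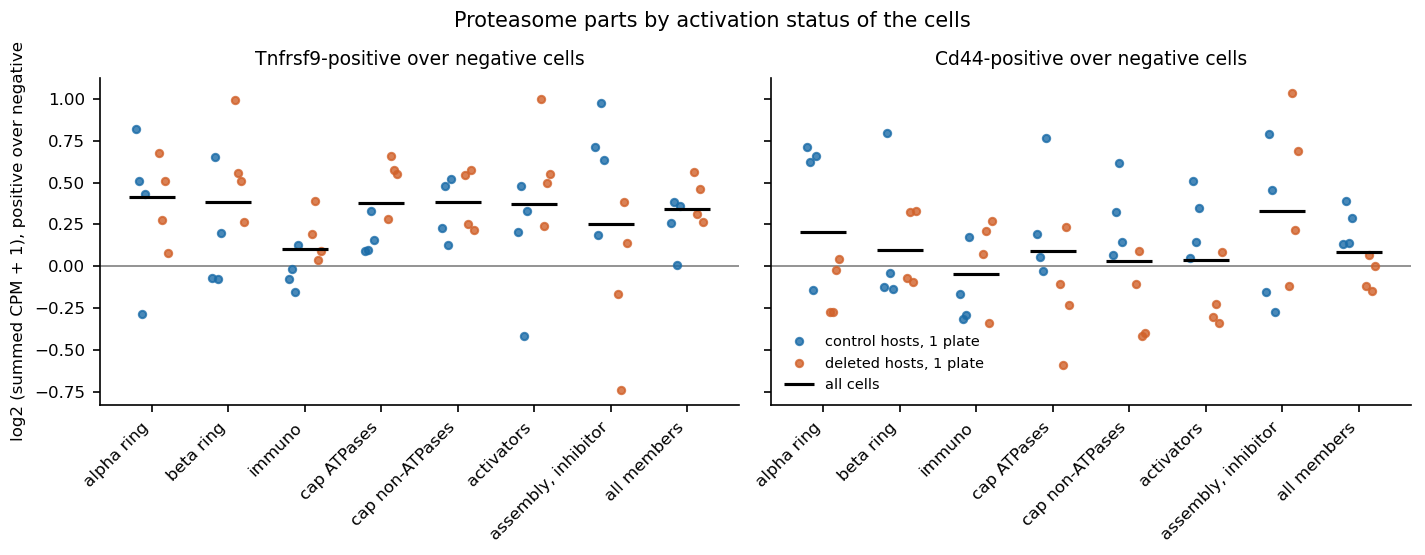
Log2 ratio of summed (CPM + 1) in positive over negative cells for each part of the proteasome, by Tnfrsf9 status (left) and Cd44 status (right). Points are plates (blue, control hosts; orange, deleted hosts) and bars are the values over all 736 cells. All 8 plates are above 0 for all members, the cap ATPases and the cap non-ATPases by Tnfrsf9 status, and for no part by Cd44 status.

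Of the 46 members compared, 40 were higher in Tnfrsf9-positive cells, with a median log2 ratio of 0.38. Psmg4, among the 40, reached 20 CPM only in positive cells, and Psme4, not among them, only in negative cells. The background was 51.1% of the 7322 genes compared, with a median of 0.01. Among genes at 100 CPM or more, 34 of 38 members were higher, with a median of 0.36 against 0.04 for the 2525 genes at that level. By size of single ratios, 11 of the 46 members were higher by at least 1.5-fold, against 17.8% of all genes, and 1 by at least 2-fold, against 6.88%. These shares were not computed for genes at 100 CPM or more, the level of 38 members. The 6 members with ratios below 0 were Psmd5 (-0.42), Psme4 (-0.21), Psmb9 (-0.15), Psmb10 (-0.13), Psmb7 (-0.11) and Psmd8 (-0.09). With all 7 alpha ring genes and all 6 cap ATPases above 0, the ratios of the alpha ring ran from 0.09 for Psma2 to 0.69 for Psma4, and those of the ATPases from 0.09 for Psmc1 to 0.64 for Psmc6.

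Only Psmd11 was higher on all 8 plates, 1 of 46 members against 0.86% of all genes, and 1 of 38 at 100 CPM or more against 2.02%. No member was lower on all 8 plates, against 3.15% of all genes. Psmd11 encodes RPN6, a lid subunit that clamps the cap to the core. In positive cells it was at 617.6, 265.8, 247.1 and 201.4 CPM on the control plates and 217.5, 246.9, 240.3 and 420.4 on the deleted plates. In negative cells it was at 217.1, 206.4, 139.9 and 171.2 CPM and 205.2, 196.5, 157.5 and 204.3 CPM on the same plates. The ranges of positive and negative cells overlapped slightly, while each plate had the same direction. Over all cells the levels were 309.0 and 186.7 CPM (log2 ratio 0.72), and without control plate 1 the ratio was 0.53.

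Psmb6, the constitutive caspase-like subunit, had the largest ratio of the members, at 305.9 CPM in positive and 151.8 CPM in negative cells (log2 ratio 1.01). On the deleted plates it was at 456.3, 417.4, 325.7 and 337.5 CPM in positive cells and 113.9, 153.5, 144.3 and 106.2 CPM in negative cells. On the control plates it was at 154.2, 299.0, 191.2 and 162.9 CPM in positive cells and 209.2, 150.5, 200.3 and 128.3 CPM in negative cells. The direction was the same on the 4 deleted plates and mixed on the control plates, with log2 ratios of 1.56 in the deleted pool and 0.19 in the control pool. The plate ratios did not overlap between pools for Psmb6 and for Psmc2, 2 of 46 members against 3.09% of all genes, a share near the background.

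Other members with ratios above 0.6 included Psmd10, the oncoprotein gankyrin that assists cap assembly (93.6 and 55.4 CPM, 0.74), and Psmd14, the lid deubiquitinase RPN11 (233.5 and 140.6 CPM, 0.73). Psmg4 (30.1 and 17.8 CPM, 0.72) and Psmg2 (79.7 and 48.8 CPM, 0.70), both assembly chaperones, and Psmd3, a lid subunit (248.8 and 156.3 CPM, 0.67), were also in this range. Each of these was lower in positive cells on 1 to 3 of the 8 plates. Psmg4 reached 20 CPM among these groups only in the positive cells. Psmb8 was at 830.7 and 713.0 CPM (0.22), higher on 7 of 8 plates with plate ratios between -0.0016 and 0.45.

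**Figure D5:**
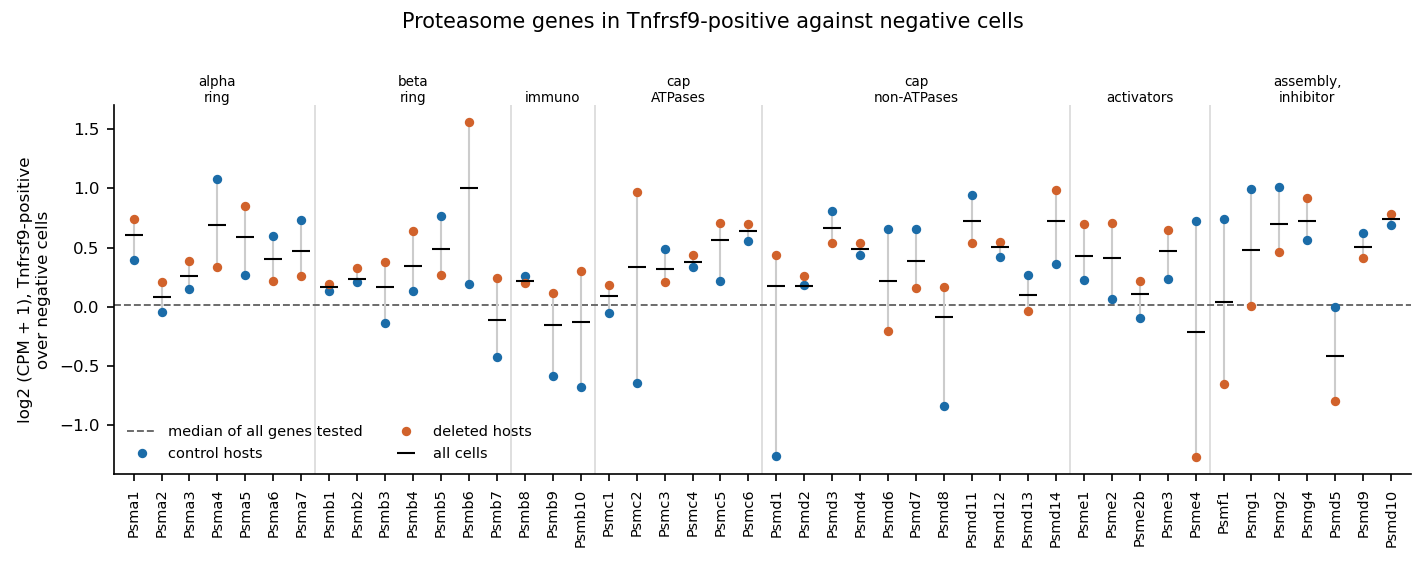
Log2 ratio of (CPM + 1) in Tnfrsf9-positive over negative cells for the 46 members, grouped by part. Bars are all cells, blue and orange points are the control and deleted pools, and the dashed line is the median of all genes compared, 0.01. Most bars lie above the line, Psmb6 is highest at 1.01, and the pools lie far apart for several members.

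The composition of the Psmb9 pair differed by Tnfrsf9 status. Psmb9 made up 24.5% of the reads per kilobase of its pair in positive cells and 42.1% in negative cells. This share was lower in positive cells on 8 of 8 plates. The share was 34.0%, 27.1%, 18.5% and 29.7% in positive cells of the control plates against 41.7%, 43.9%, 30.8% and 43.8% in negative cells. On the deleted plates it was 16.4%, 29.8%, 22.5% and 23.0% against 49.3%, 41.5%, 46.1% and 44.6%. The ranges of the positive cells, 16.4% to 34.0%, and of the negative cells, 30.8% to 49.3%, overlapped only through control plates 1 and 3. The level of Psmb9 itself was lower in positive cells on 6 of 8 plates. In the control pool Psmb9 was at 127.9 CPM in positive and 192.4 CPM in negative cells, and Psmb6 at 196.3 and 171.6. In the deleted pool Psmb9 was at 196.2 and 180.5 CPM, and Psmb6 at 382.8 and 129.2. The Psmb8 share was 74.1% in positive and 77.6% in negative cells (lower on 6 of 8 plates), and the Psmb10 share 75.9% and 76.1% (lower on 5 of 8).

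Several measures of the cells moved with Tnfrsf9 status. Positive cells had a median of 1750 genes with at least 5 reads against 1532, and 1581622 reads against 1522368. They were positive for a median of 17 members against 13, and for 17.5 against 13 with each cell thinned to 200000 reads. Among cells with 1378 to 1778 genes, the range from the lower to the upper quartile, the summed ratio was 0.32 (43 positive and 325 negative cells, higher on 8 of 8 plates), and 36 of 46 members were above 0. With positive status from 1 CPM, which takes in 327 cells, the summed ratio was 0.05, and 29 of 46 members were above 0. The share of all genes above 0 was not computed in either setting. In the median cell 10 CPM correspond to 15.3 reads. Status from 1 CPM can therefore rest on as few as the 2 Tnfrsf9 reads found in wells without a cell.

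Sums of markers of other cell types differed with the status too. The sum of 6 B cell markers was 69.4 CPM in positive cells (plates 13.6 to 174) and 27.6 CPM in negative cells (21.5 to 37.0), and that of 6 NK and innate lymphoid markers 197.4 CPM (5.04 to 514) and 82.3 CPM (48.1 to 139.5). The defining B cell gene Ms4a1 was at 0.057 and 0.023 CPM and the NK gene Ncr1 at 0.78 and 0.74 CPM, and Pax5 had no reads in positive cells. The B sum was mostly Cd74 (61.0 and 23.2 CPM) and the NK sum mostly Eomes (140.7 and 24.6 CPM), both named after their values were seen. Without Eomes the other 5 NK markers summed to 56.64 and 57.77 CPM, with Nkg7 at 43.91 and 37.41 and Klrb1c at 10.95 and 17.57. Without Cd74 the other 5 B markers summed to 8.35 and 4.33 CPM, with Cd79a at 6.28 and 2.88. Of the 6 markers in each list, 5 B markers and 4 NK markers were higher in positive cells. The 4 plasma cell markers summed to 155.2 and 107.5 CPM, and without Xbp1 to 0.7524 and 0.7391 CPM. The 9 myeloid and dendritic markers summed to 80.6 and 73.4 CPM, and 2 CD8 markers to 4.47 and 20.8 CPM. The 5 erythroid markers summed to 11.02 and 12.92 CPM, and 8 CD4 T cell markers to 8336 and 7844 CPM. Among cells under 100 CPM of both the B and the NK sums, 77 positive and 559 negative, the proteasome ratio was 0.34, higher on 8 of 8 plates, and 42 of 46 members were above 0. Beyond that measurement the part of these cells in the result was not tested. A limit of 10 CPM left 12 positive and 93 negative cells and a ratio of 0.17, higher on 5 of 8 plates, with 24 of 46 members above 0 and a median of 0.04. Under these limits too, the share of all genes above 0 was not computed.

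The genes that work with the proteasome did not share one direction. Of 7 other cap and core partners, 5 were higher in Tnfrsf9-positive cells, among them the assembly factor Pomp (187.2 and 132.4 CPM, log2 ratio 0.50) and the thioredoxin-like cap protein Txnl1 (93.7 and 76.3 CPM, 0.29). The nuclear import factor Akirin2 (22.3 and 34.0 CPM, -0.59) and Zfand5 (58.6 and 86.1 CPM, -0.55) were lower. The deubiquitinases of the cap were Usp14 at 114.3 and 70.7 CPM (0.68), higher on 4 of 8 plates and lower on 4, and Uchl5 at 59.9 and 52.4 CPM (0.19, higher on 5). Of the shuttle factors, which bring ubiquitinated proteins to the cap, Ubqln1 was at 187.1 and 162.0 CPM (0.21, higher on 5 of 8 plates). Ubqln4, at 46.7 and 13.4 CPM (1.73, 6 of 8), reached 20 CPM among these groups only in the positive cells, and Ubqln2, at 0.94 and 5.27 CPM, was below the limit. Beside the counts of each list stands the share of all genes above 0, 51.1%.

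Of the 4 ubiquitin precursor genes, 3 were higher, among them Rps27a at 146.7 and 113.2 CPM (0.37) and Ubb at 2776 and 2668 CPM (0.06). The 8 genes of the unfoldase p97 and its cofactors split evenly, 4 above 0, from Ufd1l (137.9 and 111.3 CPM, 0.31) and Nsfl1c (163.8 and 133.3 CPM, 0.29) to Ubxn4 (132.2 and 154.5 CPM, -0.22). Of 10 genes of ubiquitin activation and transfer, 5 were above 0. One of them, the conjugating enzyme Ube2k, was higher on all 8 plates (87.4 and 51.2 CPM, 0.76), against 0.86% of all genes. No gene compared in the other pathway lists was. Ube2d2a (50.6 and 74.1 CPM, -0.54), the activating enzyme Uba6 (24.2 and 34.2 CPM, -0.48) and Ube2g2 (93.4 and 122.6 CPM, -0.39) were below 0.

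The 7 transcription factors compared had a median log2 ratio of -0.19, with 3 above 0. The interferon factor Irf1 (323.9 and 502.3 CPM, -0.63) was lower in positive cells on 7 of 8 plates. Nfe2l1 was at 31.0 and 37.9 CPM (-0.28), and Nfyb, a subunit of NF-Y, at 153.6 and 98.4 CPM (0.64, higher on 7 of 8). Of the 7 class I peptide supply genes, 5 were above 0, with the chaperone Calr at 293.6 and 170.6 CPM (0.78), the peptidase Erap1 at 149.9 and 101.3 CPM (0.56), Tapbp at 680.1 and 586.9 CPM (0.21) and B2m at 2075 and 1837 CPM (0.18). None of these pathway lists had a member that separated the pools, against 4.68% of all genes compared.

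Cd44 encodes an adhesion receptor that is high on antigen-experienced T cells. At 10 CPM or more, 105 cells were Cd44-positive, 49 in the control pool and 56 in the deleted pool, and wells without a cell held at most 7 reads of Cd44. Proteasome genes were at 8320 CPM in sum in Cd44-positive cells and 7829 CPM in negative cells (log2 ratio 0.09, higher on 6 of 8 plates). On the control plates the sums were 9479, 10207, 8046 and 9319 CPM in positive cells and 8645, 7774, 7305 and 7639 CPM in negative cells. On the deleted plates they were 7203, 8370, 7319 and 7395 CPM in positive cells and 7808, 7979, 8120 and 7381 CPM in negative cells. Positive cells were higher on the 4 control plates and on 2 deleted plates, with ratios of 0.23 in the control pool and -0.05 in the deleted pool, a difference that was not tested. Among cells with 1378 to 1778 genes the ratio was 0.02, higher on 2 of 8 plates, with 24 of 46 members above 0 and a median of 0.02. The share of all genes above 0 was not computed among those cells. Marker sums differed with Cd44 status as well, for B cells 58.15 and 29.98 CPM and for NK and innate lymphoid cells 138.1 and 93.82 CPM. Plasma cell markers summed to 158.4 and 107.5 CPM. Each difference rested mostly on 1 gene. Without Cd74 the B sum was 2.049 and 5.455 CPM, and without Eomes the NK sum was 61.38 and 56.95 CPM. Without Xbp1 the plasma sum was 0.6214 and 0.7616 CPM. The part of these markers in the result was not tested.

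By part, the Cd44 ratios ran from -0.04 for the immunoproteasome genes (1095 and 1129 CPM) to 0.33 for the assembly and inhibitor genes (544.9 and 432.9 CPM), and the alpha ring was at 0.21 (1513 and 1311 CPM). No part was higher on more than 5 of 8 plates. Of the 46 members, 28 were above 0, with a median of 0.13, against 49.7% of all 7320 genes and a median of -0.0029. None was higher on all 8 plates, against 0.464% of all genes and 0.923% of those at 100 CPM or more, and none was lower on all 8, against 2.25%. By size, 4 members were higher by at least 1.5-fold, against 15.1% of all genes, and 0 by at least 2-fold, against 6.16%. Such shares were not computed for genes at 100 CPM or more. The largest ratio was that of Psmd3 (274.4 and 153.0 CPM, 0.84, higher on 6 of 8 plates), and the lowest that of Psmb10 (157.0 and 218.0 CPM, -0.47, lower on 6 of 8). The plate ratios did not overlap between pools for Psma2 and Psmc5, 2 of 46 members against 2.92% of all genes. Cd44-positive cells too had more genes per cell, a median of 1777 against 1532, and were positive for a median of 17 members against 13.

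Only 16 cells were positive for both Tnfrsf9 and Cd44, and their summed proteasome level was 10403 CPM. Cells positive for Tnfrsf9 alone (94) were at 9486 CPM, cells positive for Cd44 alone (89) at 7978 CPM, and cells negative for both (537) at 7517 CPM. The immunoproteasome genes did not follow this order: they were at 1573, 1135, 1016 and 1128 CPM in the same 4 groups. The first group came from 6 control and 10 deleted cells, so its level rests on few cells.

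The activator genes Psme2 and Psme2b are near-identical copies, and reads of one may have been counted to the other. Psme2 was positive in 220 control cells and Psme2b in 240, with both positive in 214, and in the deleted pool the counts were 219, 239 and 214. Psme2b held 39.9% of the reads of the pair in the control pool and 43.7% in the deleted pool, and their CPM had a Spearman correlation of 0.79 and 0.77 over 368 cells each. The separate levels of these genes are therefore uncertain, while the activator sums contain both.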

How the data were processed

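Single cells were sorted into 8 plates of 96 wells, 4 plates per pool, and amplified full-length with 25 PCR cycles, per the labels' protocols. The authors deposited raw read counts per gene and well, made with featureCounts 2.0.1 on mm10, per the submitters' processing notes; no source used here gives the aligner, annotation or strand setting. Without molecular identifiers, intervals cover counting error only. The 32 control wells were left out of the comparisons, all 736 cells were kept, and no doublet caller was run.

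From the counts, CPM were summed over cells with Python 3.11.15, numpy 2.4.6, pandas 2.3.3 and scipy 1.17.1. A gene was compared where the higher group reached 20 CPM, and ratios used a pseudocount of 1 CPM. Exon lengths were unions of GENCODE M21 transcripts that carry a RefSeq accession, since the RefSeq annotation named in the design was not used here. Shfm1 and Ufd1l are older symbols used by the files. The calculations were tested on simulated data. The members, the marker and pathway lists and the rule for named genes (all members, and up to 4 genes per pathway list by size of the Tnfrsf9 ratio) were chosen with earlier results of these data known. With 1 pool per group no test was made. Alternatives left out each plate, changed the status threshold and scaling, weighted cells equally, dropped the highest cell, and required 100000 reads. Those on genes per cell, on B and NK markers, on lengths and on thinning to 200000 reads were chosen after seeing the data. Some genes of the lists and a motif are not reported here.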

Additional observations from a re-analysis of the deposited data

Results flagged for a closer look

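In groups of 4 plates, a plate was singled out where its gap to the nearest other plate, divided by the range of the group, exceeded Dixon's 95% critical value for 4 samples. Chance flags about 1 in 20 groups, and 114 groups were examined. On control plate 1, the cap ATPases summed to 1340 CPM, against 927.8 to 991.5 on the other control plates, and Psmc4 stood at 369.9 CPM, against 185.7 to 202.5. On control plate 2, Psmb7 was at 49.34 CPM, against 69.91 to 74.09, and Psmc6 at 67.04 CPM, against 91.44 to 95.82. On control plate 3, Psmd13 was at 101.0 CPM, against 161.1 to 168.2, Psmd2 at 293.1 CPM, against 442.4 to 459.0, the alpha ring at 1240 CPM, against 1384 to 1401, and the Psmb9 share of its pair at 29.58%, against 40.89% to 42.08%. On deleted plate 2, Psmd5 was at 223.4 CPM, against 117.9 to 131.5 on the other deleted plates.

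Proteasome genes also had reads in wells that the comparisons do not use. The 22 wells labelled mBM with at least 100000 reads held a median of 11329 member reads, from 3665 to 22518, against 47 to 98 in the 9 wells without a cell. These wells differed in depth, with medians of 1722292 and 9554 reads in genes. Relative to depth the member sums were close, with medians of 7238 and 7408 CPM.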

How the results depend on the processing

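No paired analysis was possible because each group is 1 pool and the plate numbers mark no shared animal. Over 32 sums, pair shares and counts, 448 of 464 alternative values stayed within the spread of the plates or 1.5 times the count. The other 16 did not. The pair shares could not change with the second exon lengths, because the paired genes have the same length in both. Over 138 ratios of single members, 2076 of 2116 stayed within the spread of the plates. A change of sign within that spread counted as staying. Leaving out a plate can hardly move a sum, share or ratio by more than the spread of those same plates. Such values could hardly fail, so both tallies say little about stability. The pool ratio changed sign in 4 of 12 alternatives for the assembly and inhibitor genes and in 3 for the cap ATPases. It did so in 2 for the immunoproteasome genes, in 1 for the alpha ring and in 0 for the other parts. No call was reversed, but no part separated the pools and few parts had all plates in one direction by status. The lack of a reversed call therefore decides little. Leaving out each plate gave 0 to 4 members separated and lower in the deleted pool, with 4 without control plate 3, while the count higher stayed at 2. With a plate left out, ranges fail to overlap more easily. The share of all genes in these settings was not computed, so these counts are not read as a result about the members. With Tnfrsf9 status from 1 CPM, the log2 ratio was 0.049 for all members, 0.0099 for the cap ATPases and 0.16 for the cap non-ATPases. Among cells under 10 CPM of B and NK markers, the Tnfrsf9 ratio was 0.17 for all members, -0.26 for the immunoproteasome genes, 0.79 for the activators and -2.13 for the assembly and inhibitor genes. The Cd44 ratio there was 0.34 for all members, 0.31 for the immunoproteasome genes, 0.47 for the cap non-ATPases and 0.49 for the activators. That setting kept 12 Tnfrsf9-positive and 13 Cd44-positive cells, and the cause was not tested. For a gene positive in few cells, such as Psme4 (37 cells), the number of cells limits the precision more than the reads do.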
